A study of Mus musculus with 16 samples.

Results

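The regions described are H3K4me1 islands of 3T3-L1 preadipocytes that were present at 0 h, were absent from the 48 h list and carried no H3K27ac island at any time. The 3T3-L1 line consists of mouse fibroblasts that form fat cells when treated with MDI, which combines isobutylmethylxanthine, dexamethasone and insulin. Members were chosen by 3 measured properties. The score of the island had to lie above the median of the 0 h H3K4me1 list (34.1), the island had to overlap no 48 h H3K4me1 island, and it had to overlap no island of any of the 8 H3K27ac lists. An overlap of at least 1 bp counted. Of 50276 H3K4me1 islands at 0 h, 25136 scored above the median and 968 met all conditions, which is 3.85% of those above the median. They are called lost silent islands here, where silent means without an H3K27ac island.

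The series holds 16 ChIP-seq libraries, each with its own list of enriched islands. H3K27ac was profiled in cells transduced with an empty virus and in cells transduced with SETD5-V5, at 0 h (day 0) and 48 h (day 2) of differentiation, with replicates A and B of each. SETD5-V5, the tagged protein, was profiled at 0 h and 6 h in replicates A and B. H3K4me1 had 1 library at 0 h and 1 at 48 h, and endogenous SETD5, with the antibody IgG-F2104, had 1 library at 0 h and 1 at 6 h. All groups share the cell line. The 0 h libraries were taken before MDI induction and the 6 h and 48 h libraries after it. The SETD5-V5 protein came from a retrovirus whose LTR promoter is weak, in cells that still carry the endogenous gene. The labels name the SETD-V5 virus for both H3K4me1 libraries, whereas the study shows these data as untransduced preadipocytes, so the genotype behind the loss of H3K4me1 is uncertain. The labels of both SETD5-V5 libraries of replicate A leave the virus blank, as do those of endogenous SETD5, and those of replicate B name it. The study describes A and B as biological replicates, and H3K4me1 and endogenous SETD5 as done once. The H3K4me1 lists hold 50276 islands at 0 h and 49926 at 48 h, the H3K27ac lists 31292 to 39949, the SETD5-V5 lists 16054 (A) and 6666 (B) at 0 h and 35573 (A) and 27220 (B) at 6 h, and the endogenous SETD5 lists 2132 at 0 h and 3293 at 6 h. The total reads that the study lists were nearly equal for both H3K4me1 libraries, and in both replicates of SETD5-V5 they were fewer at 0 h than at 6 h, although replicate B had more reads than A at 0 h and fewer islands. Reads per island are not part of the lists, and an island that is absent from a list was below the threshold of the caller.

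H3K4me1 is laid down on enhancers by the methyltransferases MLL3 and MLL4, often before the enhancer is used, and H3K27ac is added by CBP and p300 when the enhancer becomes active. An enhancer with H3K4me1 but no H3K27ac is called primed, and a primed enhancer can either be activated later or lose its mark when the cell takes another path. SETD5 is a SET domain protein found with the NCoR and HDAC3 corepressor, which removes acetyl groups from histones. In 3T3-L1 cells the study addressed whether SETD5 holds primed enhancers back from acetylation early in adipogenesis. Lost silent islands had the primed pattern in the 0 h lists, an H3K4me1 island without an H3K27ac island. The 48 h lists held no island of either mark there, which does not show that the marks were gone.

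Sequences of 4 lost silent islands are given to show what kind of DNA the regions hold. The islands in Vav2 and in Magi1 were covered by SETD5-V5 at 6 h in replicate A and replicate B, and their windows are centred on the part that both SETD5-V5 lists share. The islands in Acsf3 and near Chd4 had the highest scores among those without SETD5-V5 and are shown at their centres. All are on the plus strand of mm9 and 300 bp long, and capitals mark matches to the TEAD motif GGAATG, the AP-1 motifs TGAGTCA and TGACTCA or the C/EBP motif TTGCNNAA on either strand. Of these 4 windows, the Acsf3 window holds 1 match, to the TEAD motif, and the other 3 hold none. Of all 8 windows read by the same rule, 2 held a match.
in Vav2 (chr2:27260651-27260950): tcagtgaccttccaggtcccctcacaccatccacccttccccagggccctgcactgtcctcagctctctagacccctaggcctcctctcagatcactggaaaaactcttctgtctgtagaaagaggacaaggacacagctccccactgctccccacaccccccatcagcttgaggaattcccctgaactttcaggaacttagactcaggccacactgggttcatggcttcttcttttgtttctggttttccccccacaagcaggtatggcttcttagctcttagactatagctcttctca
in Magi1 (chr6:94200651-94200950): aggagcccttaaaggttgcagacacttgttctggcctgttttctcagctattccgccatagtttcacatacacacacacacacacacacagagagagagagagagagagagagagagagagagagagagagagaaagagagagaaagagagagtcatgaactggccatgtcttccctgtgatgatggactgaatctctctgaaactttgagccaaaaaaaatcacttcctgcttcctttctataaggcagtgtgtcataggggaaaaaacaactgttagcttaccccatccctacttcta
in Acsf3 (chr8:125340751-125341050): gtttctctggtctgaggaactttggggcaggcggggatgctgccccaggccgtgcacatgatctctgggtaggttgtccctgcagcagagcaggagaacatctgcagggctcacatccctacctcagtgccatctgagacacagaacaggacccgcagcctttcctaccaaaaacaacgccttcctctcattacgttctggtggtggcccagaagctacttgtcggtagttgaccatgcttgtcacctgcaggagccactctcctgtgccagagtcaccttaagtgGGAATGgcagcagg
near Chd4 (chr6:125038751-125039050): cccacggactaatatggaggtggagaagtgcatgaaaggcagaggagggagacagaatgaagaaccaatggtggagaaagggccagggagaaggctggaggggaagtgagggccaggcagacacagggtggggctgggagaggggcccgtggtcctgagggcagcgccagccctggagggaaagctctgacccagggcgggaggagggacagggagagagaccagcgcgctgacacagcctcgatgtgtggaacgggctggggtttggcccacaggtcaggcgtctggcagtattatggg
The GC content of these windows was 53.0% (Vav2), 44.7% (Magi1), 56.7% (Acsf3) and 63.0% (Chd4).

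Lost silent islands were short regions of modest score. Their median length was 2200 bp (quartiles 1800 bp and 2800 bp, longest 5000 bp), against 2800 bp for the 25136 islands above the median. Their median score was 39.8 and the highest 77.0, and 15.1% of the 0 h islands scored higher than the highest of them. Among 0 h islands between the 50th and 60th percentile of score, 519 of 5027 (10.3%) were lost silent islands. The share was 5.75% from the 60th to the 70th percentile, 2.65% and 0.537% in the 2 classes after it, and 0 of 5028 islands above the 90th percentile met the rule. Score and length describe the selection and were not tested. The 3 members just inside the threshold lay 176 kb from a start of Lef1 (34.112), in Kcnn3 (34.121) and near Psmg3 (34.121). The 3 islands just outside it that met the other conditions lay 209 kb from a start of Arid1b (34.108), near Zfp957 (34.108) and in Padi2 (34.098).

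Most islands without a 48 h counterpart carried H3K27ac at some time, although the share lost, taken over all scores, was higher among silent islands. Of the islands above the median, 4049 (16.1%) had no 48 h H3K4me1 island. Of these 4049, 3081 (76.1%) overlapped an H3K27ac island in at least 1 list, and the 968 lost silent islands made up the other 23.9%. Of all 3693 silent islands above the median 26.2% were lost, and of the 21443 islands with H3K27ac 14.4%. Silent islands score lower. In the class of scores from the 50th to the 60th percentile the shares were 38.9% and 30.5%, and in the next 27.5% and 24.1%. In the third they were 17.3% and 15.2%, and in the fourth 6.57% and 6.69%. In the highest class they were 0% of 128 silent islands and 0.816% of 4899 islands with H3K27ac. These shares used the selecting measures and were not tested. A further 3 classes were used for comparison and were chosen from the same lists. Retained silent islands (2725) scored above the median at 0 h, overlapped a 48 h H3K4me1 island and had no H3K27ac. Gained silent islands (1391) scored above the median of the 48 h list and had neither a 0 h H3K4me1 island nor H3K27ac. The 3081 islands lost with H3K27ac form the last class. H3K4me1 had 1 library per time point, so that loss has no replicate check. The nearest 48 h H3K4me1 island lay 5.60 kb from the median lost silent island, and 129 of the 968 (13.3%) had one within 1 kb.

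Most lost silent islands were distal. Of the 968, 66 (6.82%, 95% exact binomial interval 5.31 to 8.59) overlapped a promoter, taken as 1000 bp upstream to 100 bp downstream of any annotated start. The centres of 27 lay in exons, of 457 (47.2%) in introns and of 418 (43.2%) between genes. The promoter share was 10.9% for retained silent islands, 11.8% for gained silent islands and 15.1% for all islands above the median. The intergenic share of lost silent islands, 43.2%, stood beside 38.4% for retained, 33.2% for gained and 48.004% for islands lost with H3K27ac. The median distance to the nearest protein-coding start was 21.2 kb for lost, 17.6 kb for retained, 15.2 kb for gained silent islands and 36.3 kb for islands lost with H3K27ac. Regions are not replicates, so these positions are descriptions of 1 library with intervals that cover counting error only.

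**Figure D1:**
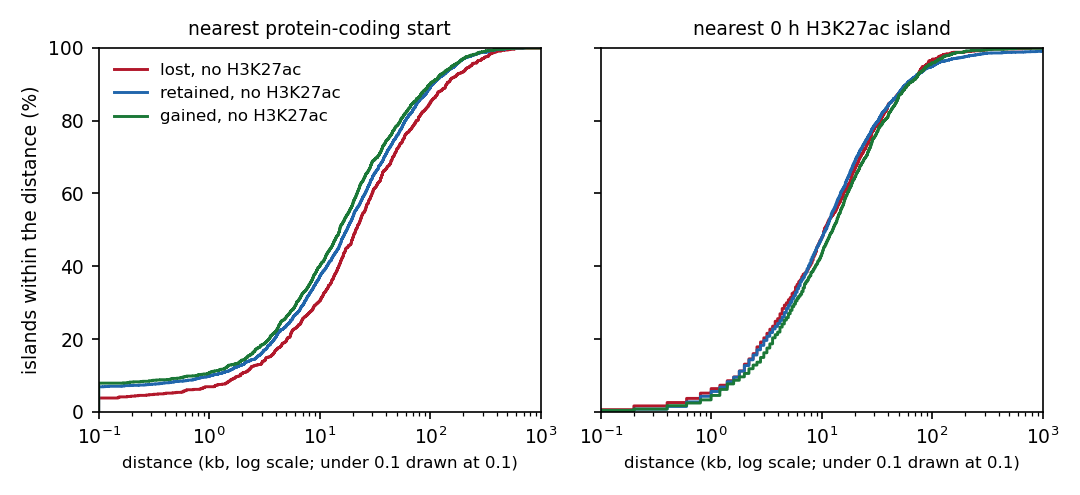
Share of islands (y axis, percent) within a given distance (x axis, kb, log scale) of the nearest protein-coding start (left) and of the nearest 0 h H3K27ac island of empty-vector cells in either replicate (right). Lost silent islands (red, n = 968) lie further from starts than retained (blue, n = 2725) and gained (green, n = 1391) silent islands at the median, 21.2 kb against 17.6 kb and 15.2 kb, while the median distances to 0 h H3K27ac were 10.6 kb, 10.8 kb and 12.6 kb.

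The islands were unevenly spread over chromosomes. Chromosome 6 held 180 (18.6%), chromosome 2 held 108 and chromosome 5 held 96, and together these 3 held 39.7% of the lost silent islands and 32.3% of all islands above the median. The density was 1.20 per Mb on chromosome 6 and 0.880 per Mb on chromosome 19, against 0.105 per Mb on chromosome 7 and 0.0360 per Mb on chromosome X. Chromosomes 6 and 19 were also densest in islands above the median, with 22.3 and 22.8 per Mb, against 5.26 per Mb on chromosome 7. As a share of the islands above the median of each chromosome, lost silent islands ranged over the nuclear chromosomes that held any from 2.00% on chromosome 7 to 5.40% on chromosome 6. Retained silent islands ranged on the same scale from 4.67% on chromosome 13 to 20.9% on chromosome 6. Islands with no 48 h H3K4me1 island, silent or not, made up 10.4% of those above the median on chromosome 6. That was the lowest share of the chromosomes that held lost silent islands, against 16.1% over all chromosomes. Whether chromosome number in this cell line moves with these densities was not tested.

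**Figure D2:**
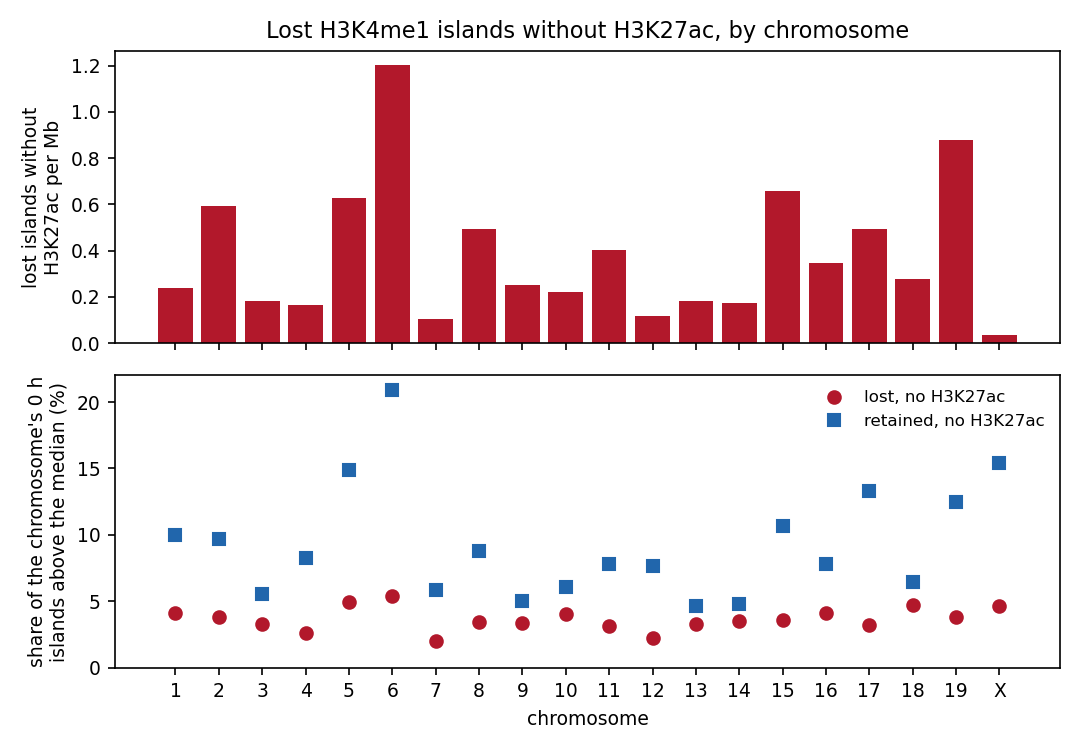
Number of lost silent islands per Mb (upper panel) and the shares of the 0 h H3K4me1 islands above the median score of each chromosome that were lost silent (red) or retained silent (blue) (lower panel), for chromosomes 1 to 19 and X. Chromosome 6 has the highest density, 1.20 per Mb, and the highest lost silent share, 5.40%. It also has the highest retained silent share, 20.9%. Counted with and without H3K27ac, 10.4% of its islands above the median had no 48 h H3K4me1 island, the lowest of these chromosomes.

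Lost silent islands mostly stood alone. Of the 968, 811 (83.8%) had no other member within 50 kb, 64 pairs were found, 8 clusters held 3 islands and 1 held 5. The largest cluster held 5 islands on chromosome 6 (chr6:53514801-53630200) at Creb5, a CREB family transcription factor. The 0 h H3K4me1 list had 17 islands in this stretch and the 48 h list 10, while 5 to 8 H3K27ac islands stood there in each of the 8 lists. None of the 5 overlapped SETD5-V5 at 6 h. The clusters of 3 with the highest scores were also on chromosome 6. One spans 38.2 kb around Pthlh (chr6:147189001-147227200), which encodes parathyroid hormone-related protein, a regulator of cartilage and bone growth. There, H3K4me1 islands numbered 7 at 0 h and 4 at 48 h, and no SETD5-V5 island overlapped the 3 members at either time. The other lies at the 5′ end of Magi1 (chr6:94179601-94249600), a scaffold protein of cell junctions, where H3K4me1 islands numbered 11 at 0 h and 6 at 48 h. Lower 48 h numbers in these stretches are built into the choice of members, which lack a 48 h island. Over the whole body of Magi1 the H3K4me1 islands numbered 56 at 0 h and 59 at 48 h.

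The 10 lost silent islands of highest score lay in or near genes of several kinds. The first lies in an intron of Acsf3 (chr8:125339001-125342800, score 77.0), which encodes a mitochondrial malonyl-CoA synthetase. The second lies 5.40 kb from a start of Chd4 (chr6:125037201-125040600, score 76.4), the helicase of the NuRD chromatin complex. Next came an intron of Tiam2 (chr17:3404201-3407800, score 75.8), an exchange factor for the GTPase Rac. The fourth belongs to the Pthlh cluster (chr6:147189001-147193400, score 74.6). It lies downstream of that gene, 19.3 kb from its start, and overlaps the promoter window of another annotated transcript. The others lie at Ablim1, Magi1, C130026I21Rik, Cck, Bin1 and Tcte2, with scores of 73.5 to 70.9. Of these, Ablim1 encodes an actin-binding LIM protein, Bin1 a protein that bends membranes, and Cck, 60.4 kb away, the hormone cholecystokinin. Of the 10 islands, 7 overlapped no SETD5-V5 island in any of the 4 libraries. The Tiam2 island overlapped SETD5-V5 of replicate A at both times, the first Magi1 island that of A at 0 h and B at 6 h, and the C130026I21Rik island both 0 h libraries and neither at 6 h.

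By genes, 779 of the 968 lay in the body of a protein-coding gene or within 50 kb of its start, and 189 (19.5%) lay in reach of none. In all, 1316 of 22380 protein-coding genes (5.88%) had at least 1 lost silent island, and 1162 of these had exactly 1. Creb5 had the most, 5. Next came 4 each at Gm20388, Magi1, C130026I21Rik, Dlgap2 and Chd6, and 3 each at Pthlh and Plxna4 among the genes with 3. Gm20388 is an annotated model of 4435 kb that spans many other genes. At Dlgap2, a scaffold gene of synapses, all 4 lay inside the 752 kb gene body, where the H3K4me1 islands numbered 37 at 0 h and 26 at 48 h. Here and at the other genes named, lower 48 h H3K4me1 numbers are partly built into the choice, since members lack a 48 h island. H3K27ac islands in the Dlgap2 body numbered 9 and 9 (A and B) in empty-vector cells at 0 h and 1 and 3 at 48 h. In SETD5 cells they numbered 14 and 14 at 0 h and 7 and 8 at 48 h. Every 0 h count of that gene was above both 48 h counts of the same vector. Other genes with many lost silent islands did not all share this direction. H3K27ac islands in the body of Magi1 numbered 17 and 18 at 0 h and 22 and 27 at 48 h in empty-vector cells, and 23 and 24, then 27 and 27, in SETD5 cells. At Creb5 they numbered 6 in each empty-vector list, and in SETD5 cells 6 and 7 at 0 h and 8 and 10 at 48 h. At Plxna4, a receptor for semaphorins, the 3 islands lay in the body, and the H3K4me1 lists held 25 islands there at 0 h and 24 at 48 h.

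Genes of 10 lists were examined for a lost silent island in the body or within 50 kb of a start. Together the lists hold 406 distinct genes, of which 49 had one. The count was 2 of 39 adipocyte and adipogenic genes (5.13%), beside 5.88% of all protein-coding genes. It was 3 of 46 mesenchymal transcription factors (6.52%), 4 of 50 TGF-beta and BMP pathway genes (8%) and 5 of 39 SRF, YAP and TEAD target genes (12.8%). It was 4 of 30 muscle genes and 4 of 30 preadipocyte and anti-adipogenic genes (13.3% each), and 7 of 50 extracellular matrix genes and 7 of 50 Wnt pathway genes (14.0% each). It was 8 of 50 axon guidance and neural adhesion genes (16%) and 7 of 30 cartilage and bone genes (23.3%). Dlx5 and Dlx6 of the last list share 1 island, as do Tnnt2 and Tnni1 of the muscle list, and each gene was counted. Pthlh, Sox5, Dlx5 and Dlx6 of the last list lie on chromosome 6, which held the most lost silent islands. On the same count, retained silent islands were found at 14.3% of all protein-coding genes and at 20.5% to 40.0% of the genes of each list, so most lists stood above all genes for both classes. The median gene body was 190 kb in the axon guidance list and 11.8 kb in the cartilage and bone list, against 15.4 kb for all protein-coding genes. The part of gene length and of the number of 0 h islands in these shares was not tested. With a reach of 10 kb in place of 50 kb, 22 of the listed genes had a lost silent island, beside 598 of the 22380 protein-coding genes. None of the 22 were in the adipocyte or preadipocyte list. Of the 30 cartilage and bone genes 1 had one at this reach, and of the SRF, YAP and TEAD targets 1. The mesenchymal and the TGF-beta and BMP lists had 2 each, the matrix and muscle lists 3 each, the Wnt list 4 and the axon guidance list 6.

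**Figure D3:**
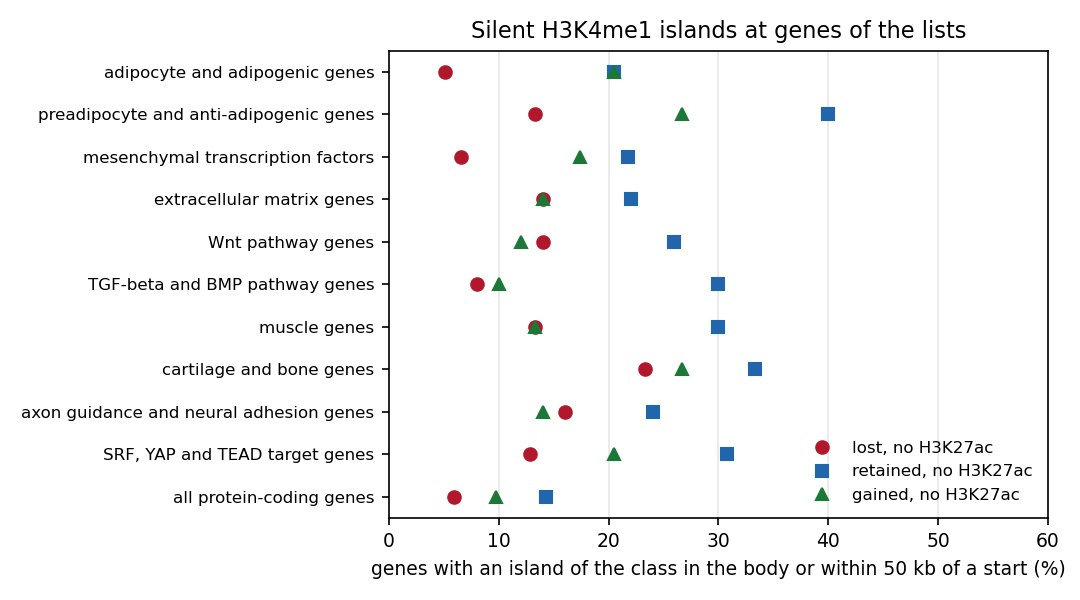
Share of the genes of each list (x axis, percent) with a lost (red), retained (blue) or gained (green) silent island in the body or within 50 kb of a start. Adipocyte genes sit at 5.13% for lost islands, next to 5.88% of all protein-coding genes, and cartilage and bone genes at 23.3%. With a reach of 10 kb, 1 of the 30 cartilage and bone genes had a lost silent island.

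Among the adipocyte genes, the 2 with a lost silent island were Gpd1, a glycerol phosphate dehydrogenase that feeds triglyceride synthesis, and Scd2, a fatty acid desaturase. Both islands lay outside these genes, 33.6 kb and 41.4 kb from a start, and both overlapped SETD5-V5 of A and B at 6 h. No lost silent island was assigned to Pparg, Cebpa or any other gene of that list. Preadipocyte genes with one were Dlk1 (chr12:110711401-110714800, score 52.5), whose product holds back adipogenesis, Tcf7l2, a Wnt effector, Wnt5a and Klf2. The Dlk1 island lies 13.3 kb from a start, and none of the SETD5-V5 lists held it.

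Wnt pathway genes with the highest-scoring lost silent islands were Wnt2 (chr6:17974401-17978200, score 47.5, in an intron), Tcf7l2 (21.1 kb from a start), Wnt16 and Wnt5a. Of these ligands and effectors, the Wnt2 island overlapped SETD5-V5 of both replicates at 6 h and of neither at 0 h. The receptor gene Fzd1 had an island 7.22 kb from its start that overlapped both 0 h lists and 1 of the 6 h lists. In the TGF-beta and BMP list, Tgfb2 had one 3.33 kb from its start and the signal transducer Smad1 had one in an intron, with scores of 46.3 and 45.7. Fstl1 and Inhbb completed that list. Cartilage and bone genes were led by Pthlh with 3 islands, then Dlx3, Sox5 and Col2a1. Sox5 and the Dlx genes encode transcription factors of the skeleton, and Col2a1 encodes the main collagen of cartilage. None of the top islands of these 4 genes overlapped SETD5-V5 in any of the 4 libraries.

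Axon guidance genes were led by Plxna4 (chr6:32428001-32430400, score 70.6), then Ephb2, Sema6d and Sema4d, which encode a receptor kinase and semaphorins, and all 4 top islands lay inside the genes. Muscle genes with a lost silent island were Tnnt2 and Tnni1, the troponin genes that share 1 island (chr1:137730401-137734200, score 67.6), Myh11 and Mb. In the matrix list, Timp3 had 2 and the elastin gene Eln, Sparc and Postn 1 each. Zeb1, a repressor of epithelial genes, had an island of 1400 bp over an annotated start in its body, and Pbx3 and Alx4 completed the mesenchymal factors. Among SRF, YAP and TEAD targets the highest scores were at Zyx, Axl, Acta2 and Actg2, each outside the gene.

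SETD5-V5 was found on few lost silent islands. At 0 h, SETD5-V5 islands overlapped 93 of the 968 in replicate A (9.61%) and 32 in B (3.31%), and the mean share was 6.46% ± 4.46 (SD, n = 2). At 6 h they overlapped 185 (19.1%) in A and 147 (15.2%) in B, a mean of 17.1% ± 2.78 (SD, n = 2). Both 6 h libraries were above both 0 h libraries. The difference was 10.7 percentage points (9.50 in A and 11.9 in B), with p = 0.333 in the two-sided exact permutation test over the 4 libraries, the smallest p that 2 against 2 allows. The 6 h lists are longer than the 0 h lists. With the lists cut to equal length, at the 6000 islands of highest score, the difference was 1.08 points, and with the islands above the median score of each list it was 4.96 points. For the lost silent islands in the highest 25% of all scores it was 7.05 points. The mean 6 h share was 2.66 times the 0 h share in lost silent islands, 2.28 times in retained, 3.25 times in gained and 2.09 times over all islands above the median, and these ratios were not tested against each other. In A the ratio was 1.99 in lost and 2.11 in retained silent islands, and in B it was 4.59 and 2.59, so that the order of these classes turned between replicates. A smaller share cannot be told apart from binding in fewer cells. Endogenous SETD5 overlapped 24 (2.48%, 95% exact binomial interval 1.59 to 3.67) at 0 h and 31 (3.20%, 2.19 to 4.52) at 6 h, in 1 library each.

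Lost silent islands had less SETD5-V5 than retained silent islands in 4 of 4 libraries. Retained silent islands were overlapped in 18.3% (A) and 10.2% (B) at 0 h and in 38.8% (A) and 26.5% (B) at 6 h. Within libraries, lost minus retained was -8.74 and -6.93 points at 0 h, a mean of -7.84 ± 1.28 (SD, n = 2). At 6 h it was -19.7 and -11.3 points, a mean of -15.5 ± 5.89 (SD, n = 2). The two-sided exact sign permutation test over the 4 libraries gave p = 0.13, the smallest p that 4 libraries allow. Retained islands are longer and score higher. With retained islands weighted to the length classes of the lost ones the 6 h difference was -14.8 points, and weighted to their score classes, an alternative added after seeing the data, -13.6 points. At 0 h the same values were -6.64 and -5.06 points, the second of them smaller by more than 1.5 times. Leaving out islands that overlapped endogenous SETD5, also added later, gave -14.5 points at 6 h and -3.90 points at 0 h. With the 6000 highest-scoring islands of each SETD5-V5 list the 6 h difference was -5.23 points, with those above the median score of their list -9.59 points, and for H3K4me1 islands in the highest 25% of scores the 0 h difference was -12.1 points. Endogenous SETD5 overlapped 7.63% of retained silent islands at 0 h and 8.44% at 6 h.

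**Figure D4:**
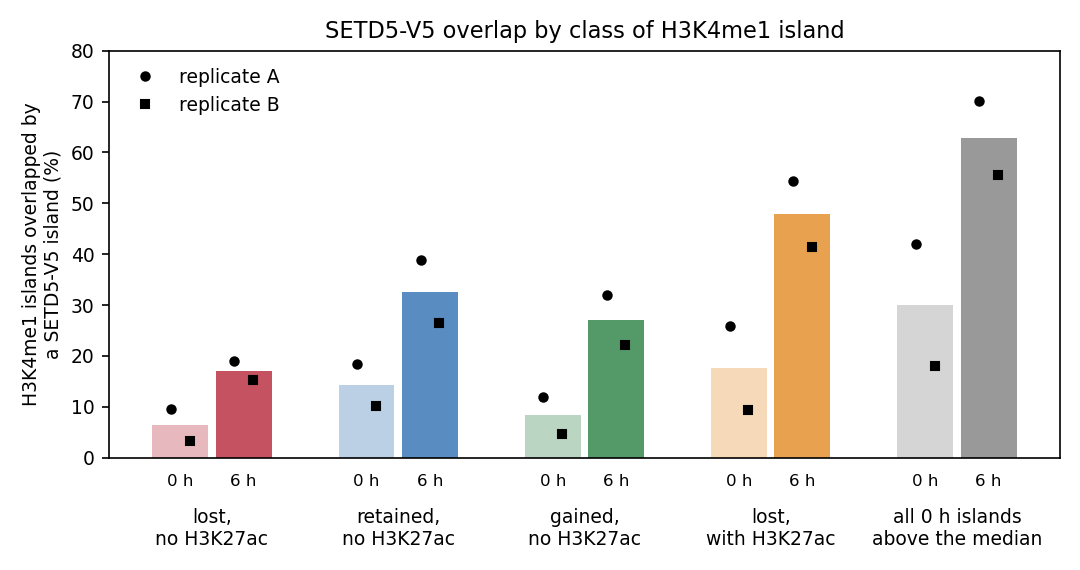
Share of H3K4me1 islands overlapped by a SETD5-V5 island (y axis, percent) at 0 h (pale bars) and 6 h (dark bars) for 5 classes of island, of which the last holds all 0 h islands above the median score. Bars give the mean of replicates A (circles) and B (squares), and lost silent islands have the lowest share in each of the 4 libraries, with means of 6.46% and 17.1%.

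Gained silent islands were overlapped in 11.9% (A) and 4.74% (B) at 0 h and in 32.1% (A) and 22.1% (B) at 6 h, above lost silent islands in each library by 1.44 to 13.0 points (two-sided exact sign permutation p = 0.13 over 4 libraries). Islands lost with H3K27ac were overlapped in 25.9% and 9.35% at 0 h and in 54.5% and 41.4% at 6 h, above lost silent islands in 4 of 4 libraries (p = 0.13, the same exact test). For endogenous SETD5 the order was different, and 0.941% of the islands lost with H3K27ac were overlapped at 0 h and 2.04% at 6 h, against 2.48% and 3.20% of the lost silent islands.

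Taken per island, 702 of the 968 (72.5%) overlapped none of the 4 SETD5-V5 lists, against 24.1% of all islands above the median and 51.7% of retained silent islands. Both 0 h lists overlapped 24 lost silent islands (2.48%), where the background over all islands above the median was 16.4%. Both 6 h lists overlapped 105 (10.8%), against a background of 53.0%. Both 6 h lists and neither 0 h list overlapped 71 (7.33%), against a background of 19.2%. Loss of SETD5-V5, with both 0 h lists and neither 6 h list, was seen at 4 islands (0.413%), against a background of 0.402%, and 13 (1.34%) were in all 4 lists, against a background of 14.9%. A further 122 islands (12.6%) were in 1 of the 6 h lists, against a background of 19.7%. Of the 37 islands with endogenous SETD5 in at least 1 library, 15 were in both 6 h SETD5-V5 lists and 8 were in none of the 4.

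The SETD5-V5 islands that fell on lost silent islands scored like the rest of their lists at 6 h. Their median score was 62.4 in A and 54.8 in B, beside 61.0 and 54.4 for the whole lists, and they covered a median of 87.5% and 86.7% of the H3K4me1 island they met. At 0 h in replicate B, the 34 such islands had a median score of 95.8 beside 45.2 for the list, and a median length of 7200 bp beside 4000 bp. Those of replicate A at 0 h had a median score of 39.5 beside 43.3.

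The 5 highest-scoring lost silent islands in both 6 h SETD5-V5 lists lay near Tank, in Vav2, near Ighv1-73, near Krt7 and at 9230112E08Rik. Vav2 encodes a guanine nucleotide exchange factor, Tank a regulator of NF-kappaB signalling and Krt7 a keratin. The Vav2 island (chr2:27259601-27262000, intron, score 67.7) was in neither 0 h list. The Tank island (chr2:61122001-61126000, score 68.1), 291 kb from a start, and the Krt7 island (score 62.5) were also in the 0 h list of A. Those near Ighv1-73 (chr12:117058801-117061600) and at 9230112E08Rik (chr2:180716201-180720800) were in all 4 SETD5-V5 lists. The Ighv1-73 island was in both endogenous SETD5 lists as well, and its nearest H3K27ac island lay 202 kb away.

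After Vav2, the highest-scoring islands present in both 6 h lists and neither 0 h list were 4. They lay in Magi1, 239 kb from a start of St3gal1, in Il1rap and 39.5 kb from a start of Tanc2. The Magi1 island (chr6:94199201-94202200, score 57.8) lies 31.1 kb from a start, and the Il1rap island (chr16:26603401-26606000, score 56.8) lies in an intron of the gene for the accessory chain of the interleukin-1 receptor. St3gal1 encodes a sialyltransferase and Tanc2 a synaptic scaffold. Their nearest H3K27ac islands of any list lay 2.40 kb to 5 kb away. Islands with endogenous SETD5 included those near Ighv1-73 and at 9230112E08Rik. The highest scores among the others were 305 kb from a start of Mtx2 (63.6, 0 h library), in Slbp (59.95, 6 h library) and in Lrrc4 (54.5, 6 h library). Only the Mtx2 island of these 3 lacked SETD5-V5 in all 4 libraries.

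Within the lost silent islands, SETD5-V5 overlap is given by score and place. In 4 groups of 242 islands ordered by score, both 6 h lists overlapped 25, 33, 26 and 21 islands from the lowest to the highest. Of the 66 islands at promoters, 18.2% (A) and 12.1% (B) were overlapped at 0 h and 16.7% and 15.2% at 6 h, so that replicate A was lower at 6 h and replicate B higher. For the 457 intronic islands the values were 9.63% and 2.41% at 0 h and 21.9% and 16.4% at 6 h, and for the 418 intergenic islands 7.89% and 3.11%, then 17.2% and 14.4%. For the 27 exonic islands they were 14.8% and 0% at 0 h and 7.41% and 7.41% at 6 h, and 1 of the 27 was in both 6 h lists. On chromosome 6, both 6 h lists overlapped 14 of 180 (7.78%), against 91 of 788 (11.5%) elsewhere.

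Islands in both 6 h lists lay closer to acetylated regions than those in none. The median distance to the nearest 0 h H3K27ac island of empty-vector cells was 6.40 kb for the 105 islands in both 6 h lists and 12.4 kb for the 702 in no list. For retained silent islands it was 8.20 kb (618 islands) and 11.8 kb (1409 islands). The median GC content of the central 300 bp was 41.7% for the 105 and 47.3% for the 702, and among retained silent islands 44.7% and 50%. These are descriptions over regions, and the part of base composition in the overlap was not tested.

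H3K27ac islands in the neighbourhood of lost silent islands were more often gone by 48 h than those around the other silent classes. Within 50 kb of a lost silent island there were 2429 (A) and 2537 (B) H3K27ac islands in empty-vector cells at 0 h, and 37.2% and 37.6% of them overlapped no island of the same replicate at 48 h. Around retained silent islands the share was 29.6% and 29.4%, around gained silent islands 23.6% and 23.7%, and over the whole lists 33.2% and 33.8%. In the other direction, 23.97% and 25.99% of the 48 h islands near lost silent islands were absent at 0 h, against 26.99% and 28.1% near retained, 31.1% and 33.2% near gained, and 28.9% and 30.9% over the whole lists. Both replicates therefore gave the same order. With 2 libraries per vector, no exact test over libraries could reach p = 0.05, and none was made. In SETD5 cells, 32.5% (A) and 28.7% (B) of the 0 h H3K27ac islands around lost silent islands were absent at 48 h, below empty-vector cells in both replicates, and over the whole lists the share was also lower, 28.6% and 24.9%. The rule removed islands with H3K27ac on themselves and not beside them, so these neighbours were not used by it, although the neighbourhoods of the classes overlap.

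**Figure D5:**
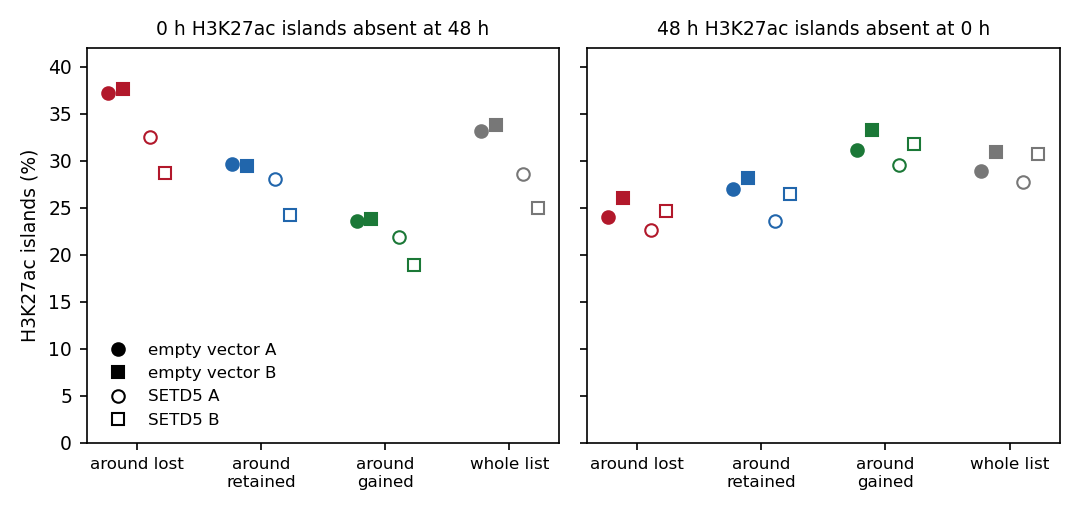
Share of the 0 h H3K27ac islands that had no 48 h island (left) and of the 48 h H3K27ac islands that had no 0 h island (right) of the same vector and replicate (y axis, percent), within 50 kb of lost, retained or gained silent islands and over the whole lists. Filled symbols are empty-vector cells and open symbols SETD5 cells, circles replicate A and squares B. In empty-vector cells the left panel shows 37.2% and 37.6% around lost and 23.6% and 23.7% around gained silent islands.

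Promoters of the host or nearest protein-coding gene were acetylated slightly less often at 48 h than at 0 h. The 968 islands name 825 such genes. In empty-vector cells, 63.5% (A) and 62.4% (B) of these genes had an H3K27ac island at a promoter at 0 h and 61.0% and 60% at 48 h, a difference of -2.48 points. Both 48 h libraries were below both 0 h libraries, with two-sided exact permutation p = 0.333, the smallest that 2 against 2 libraries allow. In SETD5 cells the shares were 63.9% and 63.0% at 0 h and 62.1% and 61.9% at 48 h, a difference of -1.45 points (exact permutation p = 0.333). Over all 22380 protein-coding genes the difference in empty-vector cells was 1.13 points upwards, for the 1734 genes of retained silent islands 0.55 points upwards and for the 1131 genes of gained silent islands 1.81 points upwards. The rule barred H3K27ac from the island only, so a gene with a lost silent island at a promoter could still have promoter H3K27ac. Slc12a8 and Slc15a3 are such genes, and the first lost and the second gained promoter H3K27ac in empty-vector cells. How far promoters that the rule barred from H3K27ac at both times shrink the difference was not tested. In empty-vector cells at 0 h the mean share with promoter H3K27ac was 63.0% for the 825 genes and 47.3% for all protein-coding genes. The part of this unlike start in the counts of genes that lost or gained it was not tested. Of the 825 genes, 24 (2.91%) had promoter H3K27ac in both empty-vector lists at 0 h and in neither at 48 h, and 10 (1.21%) went the other way, beside 1.26% and 1.96% of all protein-coding genes. The highest-scoring lost silent islands of genes that lost promoter H3K27ac in this way lay near Pard6b, in Megf10, near Krt7, in Abcc12 and in Kif21b. Pard6b encodes a cell polarity protein, Megf10 a receptor of muscle stem cells and Abcc12 a transporter. Sema3b and Timp3 of the lists above were among the 24 as well. These genes were named after their values were seen.

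Base composition and motif matches were compared in the central 300 bp of each island. The median GC content was 46.7% for lost, 48.3% for retained, 48.7% for gained silent islands, 43.7% for islands lost with H3K27ac and 47.0% for all islands above the median. An AP-1 match (TGAGTCA or TGACTCA) was in 59 of 968 windows (6.10%, 95% exact binomial interval 4.67 to 7.79), against 8.01% of the windows of all islands above the median. A TEAD match (GGAATG) was in 20.4% (17.9 to 23.0) against 18.5%, and in 18.8% of retained and 14.7% (12.8 to 16.6) of gained silent islands. The C/EBP motif TTGCNNAA was in 10.7% (8.86 to 12.9) against 12.7%, and in 14.3% (13.1 to 15.6) of the islands lost with H3K27ac. The RUNX motif TGTGGTT was in 7.44% against 7.39%, the EBF core CCCNNGGG in 8.78% against 9.51% and the steroid receptor core ACANNNTGT in 9.71% against 9.89%. Matches were read on both strands, and a match describes letters in the window and not binding. Regions are not replicates, so the intervals cover counting error only. Motif shares were not tested between classes, and neither was the part of base composition in them. Among the 105 islands in both 6 h SETD5-V5 lists, 17 windows (16.2%, 9.72 to 24.7) held the C/EBP motif, against 68 of 702 (9.69%, 7.60 to 12.1) in no list, and these intervals overlap. In retained silent islands the same split gave 11.003% and 9.44%.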

How the data were processed

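Each deposited list gives islands as chromosome, start, end and a score, the score that the authors' island caller wrote, with no read counts. Per the study's methods, reads were mapped to mm9 with ELAND or Bowtie2 over 36 bp, and islands were called with SICER or SICER2 in 200 bp windows with an E-value of 100 and gaps of 400 bp (H3K27ac, and H3K4me1 with SICER2) or 600 bp (SETD5). Scores were not compared between lists. Overlap was at least 1 bp, positions came from an mm9 annotation, and gene assignment used the body or 50 kb around a start. Libraries were compared by two-sided exact permutation tests. Members and gene lists were chosen with earlier results of these data known. Named islands were the highest-scoring 10 overall and the highest-scoring 5 of each SETD5 class. Named genes were the 8 with most islands and up to 4 per list, except Fzd1 and the genes with switched promoters, named after their values were seen. Of 8 sequence windows read, 4 are printed and the others are not reported here. The overlap step was tested on simulated data. Python 3.11.15, pandas 2.3.3, scipy 1.17.1 and pysam 0.24.0 were used.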

Additional observations from a re-analysis of the deposited data

How the results depend on the processing

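The number of lost silent islands depended on the rule. It was 1866 when an overlap had to cover at least 50% of the island, 6902 with no score limit, 78 in the highest 25% of scores and 417 with no other island allowed within 5000 bp. With 1 replicate of the H3K27ac lists left out it was 1082 to 1122. The promoter share was 15.9% within 2500 bp of any start and 5.27% for protein-coding starts. With the smaller reach, 22 listed genes had a member in the body or within 10 kb of a start. Of 54 alternatives, 7 moved the number of members, the promoter share or the number of listed genes, and 0 reversed a direction. A direction could reverse only for SETD5-V5 overlap. There were 13 such alternatives for 6 h minus 0 h and 14 for lost minus retained at each time. The replicate block among the 13 keeps the main value by construction. The size of the SETD5-V5 differences moved by over 1.5 times under the alternatives named beside them in the results, on the score of SETD5-V5 or H3K4me1 islands and on endogenous SETD5. SETD5-V5 overlap at 6 h minus 0 h ranged from 1.08 to 11.9 points, and from 9.50 to 11.9 with 1 replicate left out. Lost minus retained ranged from -22.8 to -5.23 points at 6 h (-19.7 to -11.3 with 1 replicate left out) and from -12.1 to -3.90 points at 0 h (-8.74 to -6.93 with 1 replicate left out).

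With the replicate letter as a block, the difference between 6 h and 0 h was 10.7 points with exact sign permutation p = 0.5, the smallest that 2 pairs allow. The deviations of same-lettered libraries correlated at 0.02 over islands above the median and 0.05 over members, so the letters were not used as pairs in the tests. H3K27ac islands around members were matched between 0 h and 48 h lists of the same letter, for counting alone. The exact tests could not reach 0.05 with these numbers of libraries, and without reads per island, absence from a list shows no more than a value below the threshold of the caller.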
